A study of Mus musculus with 11 samples.

Results

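Broad POU3F1 peaks were defined as the ChIP-seq peaks of the TF POU3F1 in mouse epiblast stem cells (EpiSCs) that lay on chromosomes 1 to 19 or X and had a peak width over 2000 bp. By this rule, 14911 of the 112687 POU3F1 peaks on these chromosomes were broad, or 13.2%. Together they spanned 42.8 Mb, which was 29.999% of all bases under POU3F1 peaks. The other 97776 POU3F1 peaks are called narrower peaks below. Because the width chose the members, widths and scores are given as a description only.

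The study expressed ZIC2, OTX2, SOX2, POU5F1 and POU3F1 in 129/Sv EpiSCs, each fused at its C-terminus to BLRP, a short sequence that the bacterial enzyme BirA labels with biotin. The fused TF came from a transiently transfected pCAGGS vector in addition to the endogenous gene, and chromatin was pulled down with streptavidin, so the tagged TF alone was measured. According to the authors, endogenous POU3F1 appeared relatively low, and transfection raised its mean nuclear level more than that of ZIC2, OTX2 or SOX2. Whether this dose affected the peaks was not tested. EpiSC cultures were feeder-free, with activin at 20 ng/ml and Fgf2 at 10 ng/ml, and activin-free cultures had been kept for 18 hr with Fgf2 but without activin. Each TF had 1 library in each culture, so no value has a replicate error. Intervals are 95% intervals (Wilson for shares, exact Poisson for densities) that cover counting error only, and a difference of POU3F1 between cultures could not be tested. The lists hold no reads, and library depth is unknown. Across the 10 lists, 62387 to 126751 peaks lay on the chromosomes used, and every peak had a MACS score of at least 50.

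POU3F1 belongs to the POU family of TFs, which hold a POU-specific domain and a homeodomain joined by a flexible linker. Together the domains read the octamer sequence ATGCAAAT and its variants, and the homeodomain alone prefers sequences rich in A and T. POU5F1, of the same family, maintains pluripotency together with SOX2, whereas POU3F1 is known for promoting neural fates in the epiblast and the early nervous system.

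The sequences under broad peaks were made up mostly of A and T, and 57.4% of the peaks held at least 1 octamer in exact form. The window printed first is among the 300-base stretches of broad peaks with most octamers, and it shows a high octamer content. Capitals mark each ATGCAAAT or ATGCATAT on either strand, overlapping matches are counted at each start, and all sequences are the plus strand of mm9. It lay between genes, at chr6:131936307-131936606, and held 10 octamers.
octamer window: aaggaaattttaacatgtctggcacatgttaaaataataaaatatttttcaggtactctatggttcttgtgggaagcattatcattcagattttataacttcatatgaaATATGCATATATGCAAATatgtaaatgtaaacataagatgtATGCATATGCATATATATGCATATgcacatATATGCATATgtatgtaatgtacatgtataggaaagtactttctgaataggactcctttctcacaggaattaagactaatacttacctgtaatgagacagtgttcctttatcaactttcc
In this window the octamers sat in a tract that repeats ATATGC or a near variant of it, and the GC content was 29.3%. The peak that holds the window was 3040 bp wide and contained 1 POU5F1 peak midpoint.

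For contrast, the next windows are the central 300 bases of the 2 widest members and a stretch of the widest member in Dach1, the gene with the highest density of broad peaks among genes over 300 kb. The Dach1 stretch was chosen after values were seen, as the window of that member with most TAATTA, the core sequence that many homeodomains bind. Here capitals mark TAATTA, which reads the same on both strands. The first window (chr8:19879394-19879693) and the second (chr4:109435592-109435891, in Faf1) held 0 matches, and the Dach1 window (chr14:98563125-98563424) held 2.
midpoint window 1: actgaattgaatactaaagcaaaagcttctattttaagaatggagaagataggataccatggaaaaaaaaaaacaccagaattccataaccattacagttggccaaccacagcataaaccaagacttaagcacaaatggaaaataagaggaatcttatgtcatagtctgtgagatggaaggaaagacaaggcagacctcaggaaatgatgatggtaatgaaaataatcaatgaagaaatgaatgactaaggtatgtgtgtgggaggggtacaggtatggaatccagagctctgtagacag
midpoint window 2: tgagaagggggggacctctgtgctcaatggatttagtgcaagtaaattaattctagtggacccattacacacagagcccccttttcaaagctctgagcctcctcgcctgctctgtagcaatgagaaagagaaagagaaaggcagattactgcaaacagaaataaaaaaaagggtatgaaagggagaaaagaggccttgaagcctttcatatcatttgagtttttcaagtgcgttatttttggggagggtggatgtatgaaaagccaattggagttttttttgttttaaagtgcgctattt
Dach1 window: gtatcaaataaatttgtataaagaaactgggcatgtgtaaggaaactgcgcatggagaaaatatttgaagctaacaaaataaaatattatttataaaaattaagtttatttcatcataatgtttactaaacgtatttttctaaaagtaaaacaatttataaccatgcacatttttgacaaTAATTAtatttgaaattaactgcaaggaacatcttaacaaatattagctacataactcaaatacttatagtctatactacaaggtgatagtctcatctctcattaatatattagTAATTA
None of these 3 windows contained an octamer in exact form. The Dach1 window had a GC content of 23.7%, against 37.3% and 41% in the windows of the 2 widest members. The former was picked for a word of A and T and the latter by position, so these values do not compare the members. Over their whole width, the 2 widest members had a GC content of 37.9% and 31.9%.

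Octamers were more frequent in broad peaks than in their surroundings. Over the whole width, broad peaks held 0.340 octamers (ATGCAAAT or ATGCATAT) per kb (0.334 to 0.346). Flanks 5 to 10 kb outside the peaks, where no POU3F1 peak lay, held 0.191 per kb (0.187 to 0.194), so the ratio was 1.78. Narrower peaks had a higher density of 0.385 per kb (0.381 to 0.389). Among broad peaks, the density fell from 0.349 per kb (0.341 to 0.356) at widths over 2000 and up to 3000 bp to 0.320 per kb (0.307 to 0.332) over 4000 bp. An octamer occurred in 57.4% of the broad peaks, and 6356 members (42.6%) had none in exact form. The central 300 bp held an octamer in 9.11% of broad peaks, 13.0% of narrower peaks and 5.48% of flanks.

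ATGCATAT and ATGCAAAT made different contributions. ATGCATAT occurred at 0.177 per kb of broad peak and 0.0752 per kb of flank, a ratio of 2.35, whereas ATGCAAAT occurred at 0.163 and 0.116 per kb, a ratio of 1.41. The words TAATTA, ATTTAAAT and ATGCAT, chosen after the sequences had been seen, were counted in the same way. ATTTAAAT had the highest ratio of broad peaks to flanks of the words counted, 3.04 (0.191 against 0.0627 per kb), TAATTA had a ratio of 2.28 (1.01 against 0.441 per kb), and ATGCAT, which lies within ATGCATAT, had a ratio of 2.001. The classes also differ in base composition. Relative to the number given by the base composition of each class, the octamer was at 2.23 in broad peaks, 1.57 in flanks and 2.60 in narrower peaks. In broad peaks and flanks, TAATTA was at 0.737 and 0.559, ATTTAAAT at 1.26 and 0.861, and ATGCAT at 1.88 and 0.982. ATGCATAT was at 2.32 and 1.24, and ATGCAAAT at 2.14 and 1.91. By this measure ATTTAAAT did not have the largest contrast of the words, and that of ATGCAAAT was small. A run of at least 20 bases alternating between purine and pyrimidine lay in the central 300 bp of 5.28% of broad peaks (4.94 to 5.66), against 5.88% of narrower peaks (5.74 to 6.03) and 4.48% of flanks (4.11 to 4.87). The central 100 bp of no 2 broad peaks were identical.

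Broad peaks had low GC content. Their mean GC content was 33.4% (SD 2.09 over peaks), against 34.3% (SD 3.20) in narrower peaks and 39.2% (SD 2.67) in the flanks. Only the 11193 flanks without a POU3F1 peak were kept, and the octamer and word ratios above use the same flanks. Without this choice, GC content at 7.5 kb before the midpoint was lower, 37.6% for members of up to 3000 bp and 37.1% over 4000 bp. The mean of broad peaks was below that of narrower peaks on 20 of 20 chromosomes. This difference concerns whole peaks only. In the central 300 bp, GC content was 32.99% in broad and 32.95% in narrower peaks. ZIC2, a zinc finger TF, had 9643 peaks over 2000 bp in the same cells, and these had a mean GC content of 56.4% (SD 3.52). Their lowest value was 42.3%, and the 99th percentile of the broad POU3F1 peaks was 38.5%, so the ranges of the TFs barely met.

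The low-GC stretch was longer in wider peaks. At the midpoint, mean GC content was 33.6% for POU3F1 peaks over 500 and up to 1000 bp wide, 32.1% for those up to 2000 bp and 33% to 33.1% for the 3 classes of broad peaks, up to 3000, up to 4000 and over 4000 bp. At 1.1 kb before the midpoint it had returned to 38.4% and 38.3% in both narrower classes, was 36.2% at widths up to 3000 bp, and was still 32.2% up to 4000 bp and 32.9% over 4000 bp. Aligned at the edges instead of the midpoint, broad peaks had a GC content of 38.02% from 300 to 400 bp outside, 36.3% in the outermost 100 bp inside, 32.5% from 400 to 500 bp inside and 31.8% from 500 to 600 bp inside. Near 2 kb outside it was 37.2%, so the outermost bases of the peaks were close to their surroundings and the stretch of low GC content was shorter than the peak. Broad peaks thus differed from narrower ones in the length of the low-GC stretch more than in its depth.

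**Figure D1:**
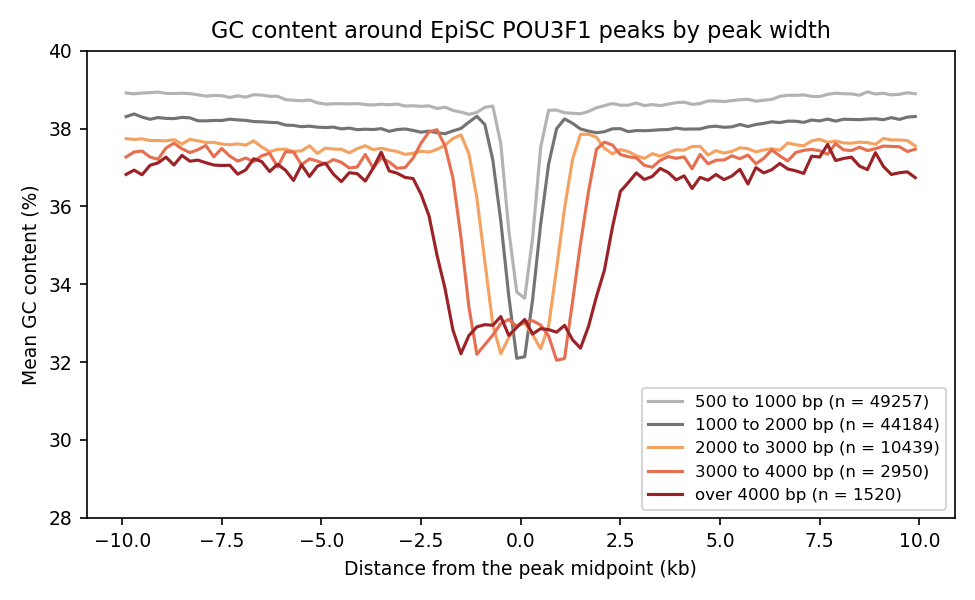
Mean GC content (%) in bins of 200 bp against the distance from the peak midpoint (kb) for EpiSC POU3F1 peaks of 5 width classes, with the number of peaks in each. The minimum lies between 32% and 34% in every class, and the dip widens with the peak, so that at 1.1 kb before the midpoint the curve is at 38.4% for peaks of over 500 to 1000 bp and at 32.9% for peaks over 4000 bp.

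Broad peaks ranged from 2001 to 22982 bp in width, with a median of 2562 bp and a 90th percentile of 4021 bp. There were 10440 members of up to 3000 bp, 2950 over 3000 and up to 4000 bp and 1521 over 4000 bp. The score, a p-value of the peak on the scale of -10 log10, had a median of 966 in broad and 160 in narrower peaks. Width and score were correlated among members (Spearman's rho 0.604 over 14911 peaks of 1 library). The threshold had no gap on either side. The 5 members just inside it were all 2001 bp wide and had scores of 391 to 1043, and the 5 peaks just outside were all 2000 bp wide and had scores of 465 to 1421.

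Of the 10 widest peaks, 7 lay in introns of protein-coding genes. The second widest, 14593 bp with a score of 3100, lay at chr4:109428446-109443038 in intron 7 of Faf1, which encodes an adaptor of the ubiquitin system. Intron 6 of Rasa1 (12572 bp), which encodes an activator of the Ras GTPase, intron 9 of Cpsf6 (11701 bp), of the pre-mRNA cleavage machinery, and intron 4 of the zinc finger gene Zfp280d (10937 bp) each held 1 of the 10 widest. Intron 18 of Foxp2, a forkhead TF gene active in neurons, held a peak of 12876 bp. The 3 intergenic peaks of the 10 widest lay at 53.7 kb from Gm15319, 257 kb from Tmeff2 and 618 kb from Hnf4g. The peak near Gm15319 was the widest of all, 22982 bp at chr8:19868053-19891034, and it stood apart from the others. Its score was 319, whereas the other 9 scored 1720 to 3141. Its GC content was 37.9%, against 31.2% to 33.5%, and it contained no peak midpoint of another TF in EpiSCs.

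The placing of the widest peaks differed from that of broad peaks in general. Of the 100 widest members (all at least 6832 bp), 27 lay in protein-coding genes of up to 100 kb and 27 in genes over 300 kb. Over all members, the shares were 8.35% and 21.98%. A width over 4000 bp was found in 15.8% of the members in genes of up to 100 kb (13.9 to 17.96), 12.02% in genes over 300 kb (10.95 to 13.2) and 8.57% of those outside protein-coding genes (8.01 to 9.17). The contrast among the 100 widest was looked at after their values were seen.

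Most broad peaks were far from promoters. The midpoint was within 1 kb of a TSS in 1.54% of the members (1.36 to 1.75), 1.97% of narrower POU3F1 peaks and 43.9% of broad ZIC2 peaks. The median distance to the nearest TSS was 64.0 kb, against 54.4 kb for narrower peaks and 1.64 kb for broad ZIC2 peaks. Gene bodies held 41.2% of the members (40.4 to 41.99), where 39.5% of all POU3F1 peaks and 41.2% of the sequenced bases of these chromosomes lay in gene bodies. Introns held 38.5% (37.7 to 39.3), against 37.5% of all POU3F1 peaks and 37.8% of bases. Exons held the midpoint of 2.69% (2.44 to 2.96), against 2.04% of all POU3F1 peaks and 3.40% of bases. The share of members in genes was therefore close to the share of the genome that genes make up.

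Long introns held more broad peaks than their share of intron bases. Of the 5608 members in introns of the longest transcript of a protein-coding gene, 37.8% (36.6 to 39.1) were in introns over 100 kb, which made up 22.2% of intron bases. Narrower peaks were in such introns in 33.4% of cases (32.9 to 33.8). First introns held 22.4% of members in introns and made up 26.9% of intron bases. A broad peak lay in the body of 1494 of 22350 protein-coding genes, or 6.68%, but in 292 of the 528 genes over 300 kb, or 55.3%. Per Mb of gene body, genes over 300 kb held 11.0 broad peaks and shorter genes 3.80, against 5.83 per Mb of genome.

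The genes with most broad peaks were among the longest of the mouse genome. Lrp1b, encoding a large receptor of the LDL receptor family, held 104 in 2058 kb (50.5 per Mb). It was followed by Il1rapl1, for a synaptic adhesion protein (84 peaks, 61.1 per Mb), Dmd, for dystrophin (82, 36.3 per Mb), Csmd3 (78, 64.4 per Mb), the neuregulin receptor gene Erbb4 (76, 70.6 per Mb), the sarcoglycan gene Sgcz (67, 58.8 per Mb) and Fam190a (66, 54.9 per Mb). Lingo2 held 50, the glutamate receptor gene Grik2 held 48, Dach1 held 46 and the cadherin gene Cdh18 held 45. The intron with most broad peaks was over 100 kb long in each of these genes. Intron 1 held 42 of 67 in Sgcz (708 of 1139 kb), 32 of 45 in Cdh18 (624 of 925 kb), 30 of 76 in Erbb4 (367 of 1076 kb) and 21 of 104 in Lrp1b (329 of 2058 kb), and intron 2 held 39 of 84 in Il1rapl1 (471 of 1375 kb). In Dmd and Csmd3 the highest number in an intron was 18 of 82 and 12 of 78. GC content of these gene bodies was between 35.2% and 36.96%.

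Lists of genes were compared next. A list of 30 genes, called giant neuronal genes here, was chosen with earlier results known. The name is loose, since Park2 and Nrg1 are 101 and 191 kb long in this annotation and the sarcoglycan gene Sgcz is included. Of the 30 genes, 28 held at least 1 broad peak (median 14.97 per Mb), Cdh13 and Ntm being the exceptions with 0. The density over this list was 22.5 per Mb. Of all genes over 300 kb, 55.3% held a broad peak, at 11.0 per Mb. Genes were not matched in length or GC content, so the count is no result about neuronal genes. Of 24 pluripotency and epiblast regulators, Lin28b alone held broad peaks, 3 in its body of 110 kb, and Pou5f1, Sox2, Nanog, Otx2, Nodal and Fgf5 held 0. This was 4.17% of the list, where 6.68% of all protein-coding genes held a broad peak, and the density over the list was 5.09 per Mb, against 5.91 over all. None of 19 neural plate regulators, such as Pax6, Six3, Lhx2 and Zic1, held 1, over 0.161 Mb of gene body in all. At these sizes the counts are no result about either list. The median gene length of the latter lists was 7.64 and 5.33 kb, against 1175 kb for the giant neuronal genes and 15.4 kb for all protein-coding genes, whose median density was 0. Among 14 cadherin genes, 8 (57.1%) held broad peaks, led by Cdh18 (45), Cdh12 (27), Cdh8 (23), Cdh10 (9) and Cdh9 (5). The density over this list was 24.7 per Mb, and its median gene length was 208 kb. Of all protein-coding genes, 6.68% held a broad peak, at a median length of 15.4 kb. Cadherin genes were not matched in length or GC content either, so the count is no result about cadherins. Cdh1, the epithelial cadherin of EpiSCs, and Cdh7 and Cdh19, whose GC content was 35.1% and 34.8%, held 0. The exons of Pou3f1 itself were not overlapped by a broad peak. The EpiSC peak there was 1777 bp wide (chr4:124334853-124336629, score 3100) and the activin-free peak 2120 bp. The transfected vector holds POU3F1 coding sequence, so carried-over vector DNA and bound chromatin cannot be told apart there.

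Broad peaks were densest in long genes of low GC content, but genes of equally low GC content differed widely. Over the 528 genes above 300 kb, the number of broad peaks per Mb and GC content had a Spearman's rho of -0.788, a description over genes of 1 library. The median was 55.9 per Mb in the 19 genes of up to 36% GC, 45.5 in the 33 genes of 36% to 37%, 13.1 in the 54 genes of 38% to 39% and 1.76 in the 121 genes of 40% to 42%. Within the 52 genes of up to 37% GC, however, the density ran from 0 to 120 per Mb and rho was -0.178. Dach1 (35.2% GC) held 120 per Mb, Epha5, an ephrin receptor gene (35.3%), 83.4 and Edil3 (35.98%) 73.7. Cadm2, a synaptic adhesion gene (35.5%, 965 kb), held 1 broad peak in all, and Pcdh9 (35.6%, 873 kb) held 7.

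In 5 of these 52 genes there was no broad peak, and POU3F1 peaks of any width were few. They were the contactin gene Cntn6, Fam5c, Fstl5, the neural adhesion gene Ncam2 and Skint6, with a GC content of 34.8% to 36.9%. Over their 2.32 Mb, 30 narrower POU3F1 peaks were found (12.9 per Mb), against 140 per Mb in the 25 genes of like GC content that held over 50 broad peaks per Mb. Peaks of the other TFs were also sparse there. POU5F1 had 2.59 peaks per Mb against 82.2, SOX2 1.29 against 47.0, OTX2 0.862 against 13.3 and ZIC2 0.431 against 5.34. Ncam2 held 3 POU3F1 peaks in 424 kb and Fam5c 4 in 407 kb, whereas Dach1 held 99 in 383 kb. In activin-free cells 4 of the 5 genes again held no POU3F1 peak over 2000 bp, and Skint6 held 1. These genes were picked by their count of broad peaks, so the low counts of narrower peaks belong to the same list and are a description.

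**Figure D2:**
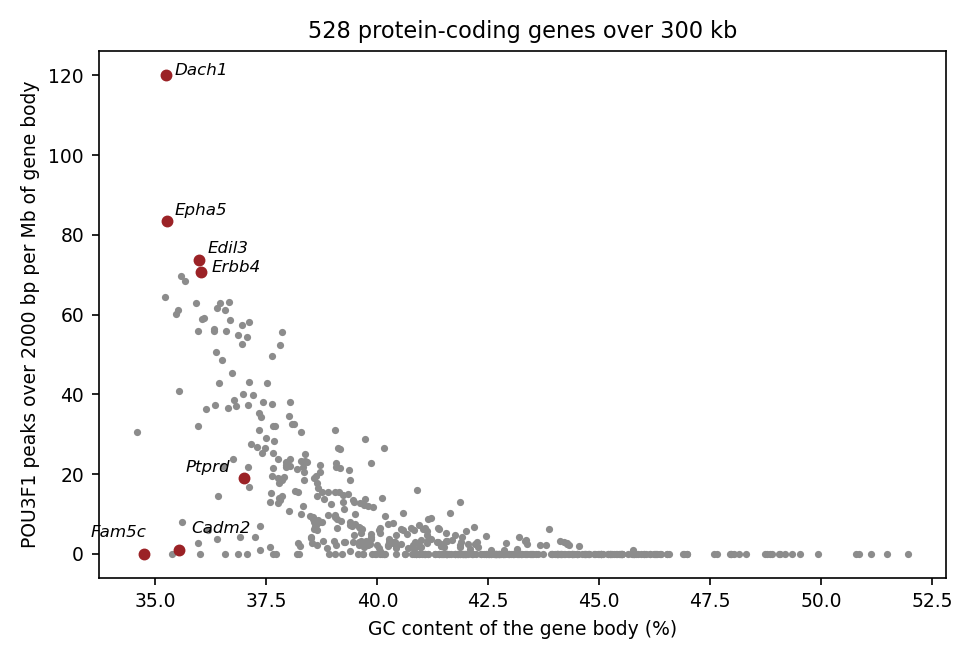
Number of EpiSC POU3F1 peaks over 2000 bp per Mb of gene body against GC content of the gene body (%), 1 point for each of 528 protein-coding genes over 300 kb. High densities are found below 38% GC, up to 120 per Mb in Dach1, and genes of equally low GC content such as Cadm2 (1.04 per Mb) and Fam5c (0) lie at the bottom.

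Broad peaks occurred in clusters within gene-poor, AT-rich segments of the genome. Of the 2581 segments of 1 Mb that held a peak of any list, 1585 held a broad peak, and the 258 segments with most of them held 53.4% of all members and 29.0% of narrower POU3F1 peaks. These segments were picked by their number of broad peaks, so the shares are a description and cannot be compared. Over all segments, Spearman's rho between number of peaks and GC content was -0.698 for broad and -0.795 for narrower peaks. The number of broad peaks per segment fell from 23.5 in the 13 segments of up to 36% GC to 0.132 in the 341 segments over 46% GC. The share of POU3F1 peaks that were broad fell over the same range from 24.3% to 3.83%. The 258 segments contained 2.29 protein-coding TSSs each on average, and the 996 segments without a broad peak 12.5. The richest were chr1:68000001-69000000 with 65 broad peaks, where Erbb4 lies, chrX:84000001-85000000 with 64, in Il1rapl1, and chrX:81000001-82000000 with 60, in Dmd. Segments of like GC content differed here too, since 60 of the 409 segments of 36% to 38% GC held none, with a median of 18 and a highest value of 65.

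At short range, 50.04% of the members (49.2 to 50.8) had another broad peak within 10 kb, measured between edges. The same share was not computed for narrower peaks, so it is a description without a baseline. Gaps between adjacent broad peaks went down to 2 bp. Any other POU3F1 peak lay within 10 kb of 94.4% of the broad peaks (94.0 to 94.7) and 84.9% of narrower ones (84.7 to 85.2), where the value for all POU3F1 peaks was 86.2%. With 10 kb as the largest gap, the members formed 10274 runs, of which 7449 were lone peaks and 1026 contained 3 or more, with 25.9% of the members. The longest run had 25 broad peaks over 161 kb in Dach1 (chr14:98227405-98388156) and covered 50.1% of this stretch. The next longest were 14 peaks over 90.6 kb, centred in intron 2 of Grik2, and 2 runs of 11 peaks. These covered 80.2 kb in intron 1 of Csmd3 and 59.4 kb in Sgcz, the latter in parts of introns 1 and 2.

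Dach1, which encodes a nuclear cofactor of the Dachshund family, was covered to a large extent. POU3F1 peaks that overlapped the gene numbered 100 in EpiSCs, 47 of them over 2000 bp, and amounted to 211 kb of peak over a gene of 383 kb. In activin-free cells there were 79 peaks, 43 of them over 2000 bp, amounting to 216 kb. POU5F1 had 68 peaks in EpiSCs (84.3 kb), SOX2 48 (36.8 kb), ZIC2 3 and OTX2 2.

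**Figure D3:**
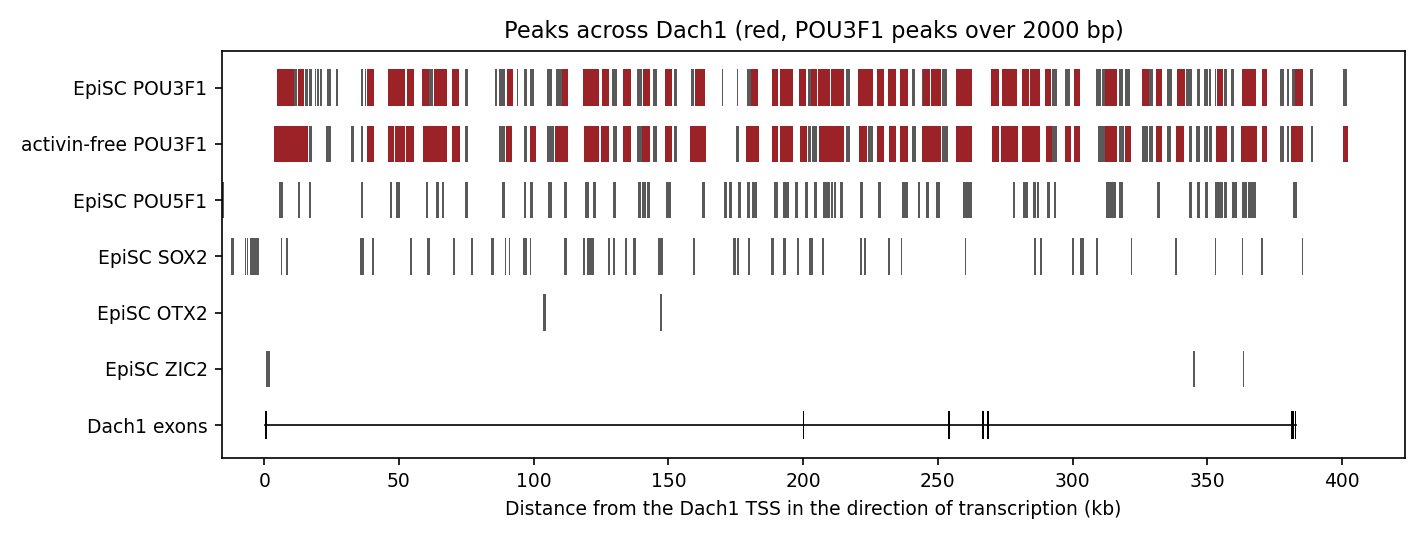
Peaks of 6 lists across Dach1 by distance from its TSS in the direction of transcription (kb), with POU3F1 peaks over 2000 bp in red, other peaks in grey and exons in black below. Red blocks extend over the gene in both cultures (47 peaks in EpiSCs and 43 in activin-free cells), POU5F1 peaks are scattered among them, and OTX2 and ZIC2 have 2 and 3 peaks.

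POU5F1 peaks were found inside broad POU3F1 peaks more often than peaks of the other TFs, and at nearly the same density as in narrower POU3F1 peaks. A POU5F1 midpoint lay inside 54.1% of the members (53.3 to 54.9), against 26.0% of all and 21.8% (21.5 to 22.02) of narrower POU3F1 peaks. The share rose with width, from 8.80% at up to 500 bp to 48.3% over 2000 and up to 3000 bp and 77.98% over 4000 bp. Per 10 kb of peak, however, there were 2.22 POU5F1 midpoints in broad peaks (2.17 to 2.26) and 2.14 in narrower ones (2.11 to 2.17), against 0.115 in the flanks (0.106 to 0.124). In the central 2000 bp, POU5F1 was present in 48.4% of broad peaks. This window reaches beyond the edges of narrower peaks, for which the share was 24.1%, so the shares cannot be compared as densities can. Most members with POU5F1 held 1 midpoint (6763 members), and 1300 held 2 or more. The most were 5, in the peak of Foxp2 intron 18 and in a peak of 9062 bp in intron 4 of Ube2d3, a ubiquitin-conjugating enzyme gene.

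POU5F1 midpoints avoided the edges of the broad peaks. When each member was divided into 10 equal parts and parts at equal distance from the edges were pooled, the outermost pair held 3.79% of the 9479 midpoints and the innermost pair 28.3%. For SOX2 these shares were 18.4% and 22.2% of 2689. POU5F1 peaks inside broad POU3F1 peaks had a median score of 165, against 141 at narrower POU3F1 peaks and 119 where no POU3F1 peak lay. They covered 28.8% of the bases of broad peaks, and 20.1% of those of narrower peaks.

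SOX2 midpoints were found in 16.2% of the members (15.7 to 16.9), against 7.10% of all POU3F1 peaks. With SOX2 peaks of a score of at least 100 alone, the share was 8.27%. Their density was 0.629 per 10 kb (0.605 to 0.653) in broad peaks, 0.571 (0.556 to 0.586) in narrower peaks and 0.419 (0.402 to 0.436) in the flanks. The density of SOX2 thus exceeded that of the flanks by far less than the density of POU5F1 did. This contrast is partly set by the flanks, which were chosen to hold no POU3F1 peak. In the EpiSC lists, 48.3% of POU5F1 peaks but 82.3% of SOX2 peaks lay where no POU3F1 peak was, so the choice leaves out more POU5F1 peaks. The largest number of SOX2 midpoints was 4, reached in members in Cpsf6, Ube2d3, Exoc5, an exocyst subunit gene, and Dach1, and 14 members, that in Ankrd17 among them, held 3. Members with a SOX2 midpoint held a POU5F1 midpoint in 63.1% of cases (61.2 to 65), and those without in 52.3% (51.4 to 53.2). Since both shares rise with width, this difference is not independent of width.

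OTX2 and ZIC2 were rare in broad peaks. OTX2, a homeodomain TF, had a midpoint in 7.54% (7.13 to 7.98) against 4.25% of all POU3F1 peaks, at a density of 0.291 per 10 kb (0.275 to 0.308), lower than the 0.370 (0.358 to 0.382) in narrower peaks and above the 0.238 (0.226 to 0.251) in flanks. ZIC2 had a midpoint in 93 members, or 0.624% (0.509 to 0.763), against 0.377% of all POU3F1 peaks. Its density of 0.0218 per 10 kb (0.0176 to 0.0266) was lower than both the 0.0334 in narrower peaks and the 0.150 (0.140 to 0.160) in flanks. Counting any shared base, 5247 members (35.2%) overlapped no peak of the other four TFs, against 61.9% of all POU3F1 peaks, 5878 (39.4%) overlapped POU5F1 alone, and 24 overlapped all 4.

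**Figure D4:**
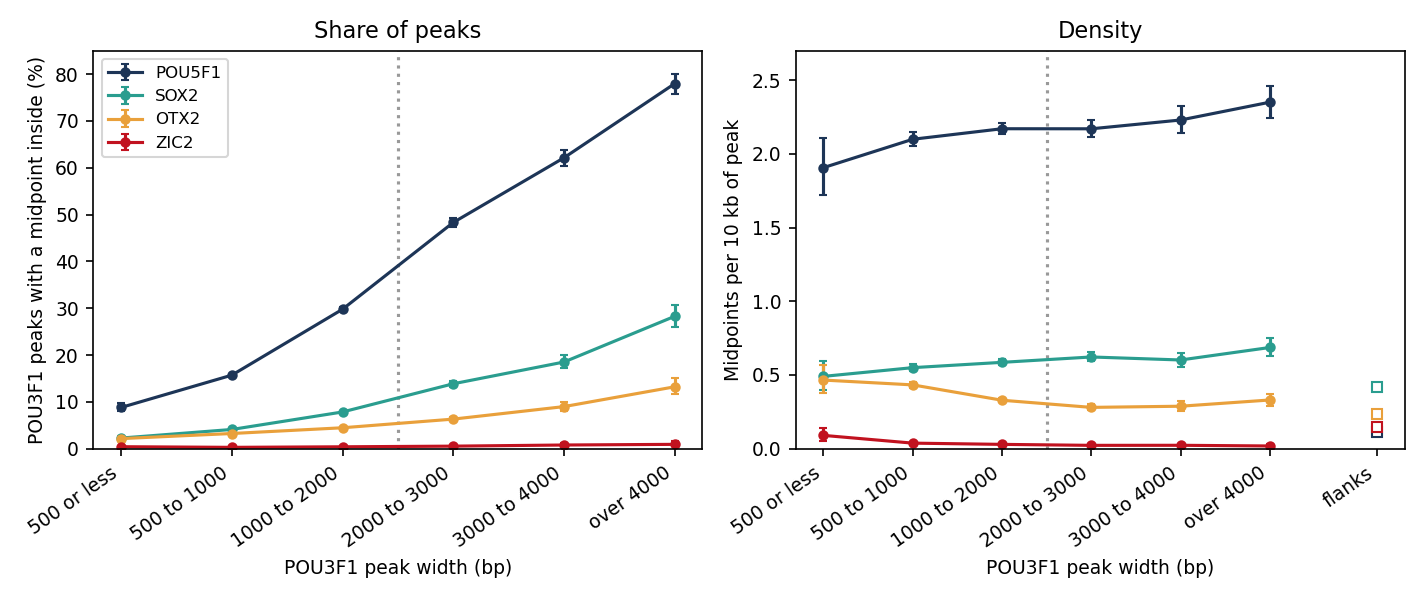
Left, share of EpiSC POU3F1 peaks with a midpoint of POU5F1, SOX2, OTX2 or ZIC2 inside (%), and right, number of midpoints per 10 kb of peak, both by POU3F1 peak width (bp), with 95% intervals for counting error and open squares for the flanks of broad peaks. The POU5F1 share rises from 8.80% to 77.98%, while its density stays between 1.91 and 2.35 per 10 kb.

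Broad peaks were found again after activin removal. In the activin-free POU3F1 list, of 101920 peaks, 99.8% of the members were overlapped (26 were not), against 82.6% of all and 80.0% of narrower EpiSC POU3F1 peaks. Among narrower peaks the share rose with width, from 43.5% at up to 500 bp to 69.3% up to 1000 bp and 95.5% up to 2000 bp. Members were wider and had higher scores than narrower peaks (median 966 against 160), so these shares do not compare peaks of like width or score. A single peak overlapped 89.1% of the members, 2 peaks 10.27% and 3 or more 0.476%. The activin-free peaks covered a median of 97.7% of a member's bases, and in 94.2% of members the overlap was at least 50% of both peaks. The peaks were also broad in most cases, as 85.2% of members (84.6 to 85.7) were overlapped by an activin-free peak over 2000 bp. This share was 70.1% for members of up to 2200 bp and 95.1% for those over 3000 bp. The widest overlapping peak was wider than the member in 8612 cases and narrower in 6282, with a median log2 ratio of 0.03. Spearman's rho between cultures was 0.643 for the widths and 0.837 for the scores of 14885 members, a description over peaks.

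The activin-free list had more peaks over 2000 bp, 18341 or 18.0% of its peaks. Of these, 68.8% overlapped a member, 31.1% overlapped narrower EpiSC peaks only, and 99.9% overlapped an EpiSC POU3F1 peak of any width. Their GC content of 33.5% (SD 2.27) was close to that of the members. Counts in the genes with most broad peaks were close in both cultures, with 104 and 110 broad peaks in Lrp1b, 84 and 92 in Il1rapl1, 76 and 82 in Erbb4, and 46 and 42 in Dach1. In other genes they differed more, with 19 and 44 in Pcdh11x, 7 and 18 in Pcdh9 and 6 and 18 in Klhl1. Both libraries differ in number of peaks, and without replicates a change in culture cannot be told apart from a change of library.

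Activin-free POU5F1 peaks were inside more of the members. A midpoint lay in 82.7% (82.1 to 83.3), against 47.5% of all POU3F1 peaks, in a list of 126751 peaks where the EpiSC list had 62387. Their density was 3.48 per 10 kb of broad peak (3.43 to 3.54), lower than the 4.15 (4.11 to 4.19) in narrower peaks, and they covered 57.9% of the bases of broad peaks. Of those inside broad POU3F1 peaks, 32.5% were themselves over 2000 bp, against 1.41% of those without a POU3F1 peak. In the EpiSC POU5F1 list these shares were 13.0% and 0.693%.

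**Figure D5:**
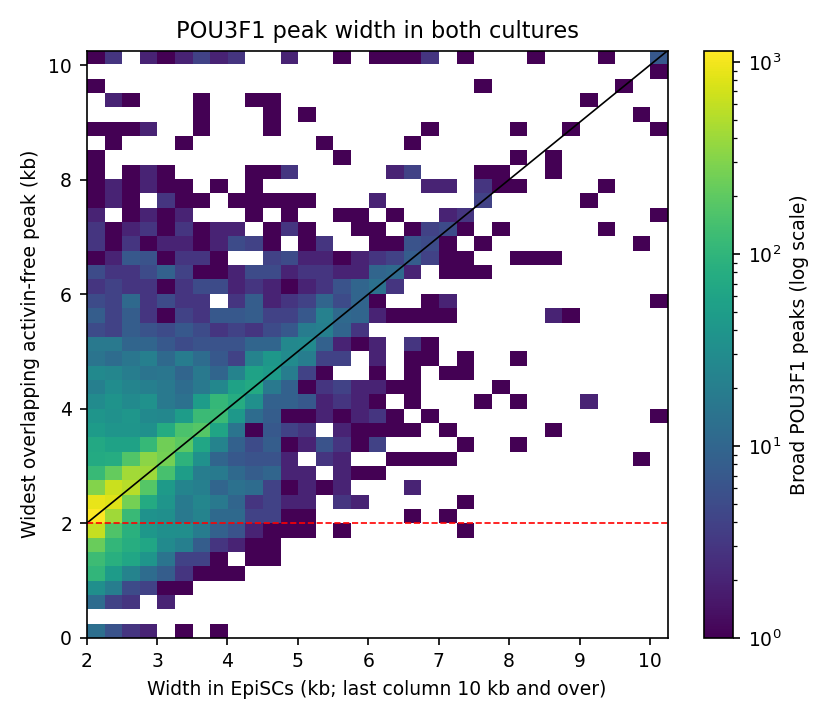
Width of the widest overlapping activin-free POU3F1 peak (kb) against the width of each broad POU3F1 peak in EpiSCs (kb), as the number of peaks in squares of 250 bp on a log colour scale, with the diagonal in black and 2 kb as a dashed line. Most peaks lie along the diagonal, 85.2% are above the dashed line, and the 26 members without overlap are at 0.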

How the data were processed

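ChIP-seq was performed for 5 TFs in EpiSCs and in activin-free cells, with 1 library for each. The authors used Bowtie2 for alignment to mm9 and MACS1.4 for peak calling in each library, against input DNA and with a band width of 150 bases. Which input the activin-free lists were called against is not given in the sources used here. The deposited lists give the start and end of each peak and a score, which the authors' MACS run derived as -10 log10 of the p-value. They hold no reads, so depth is unknown and peaks were not called again. The input library was not analysed here.

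Peaks on chromosomes 1 to 19 and X were used. Another TF counted as present where its peak midpoint lay inside a POU3F1 peak, and POU3F1 lists were compared from 1 shared bp. Genes came from GENCODE vM1, with lengths from the start and end of the gene and introns from its longest transcript. Sequence was read from mm9 (NCBIM37) without repeat masking. Flanks were the stretches 5 to 10 kb outside a peak that held no POU3F1 peak. Shares have 95% Wilson intervals and densities exact Poisson intervals.

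The members, gene lists and measures were chosen with earlier results of these data known. Named genes and peaks followed a rule: the 10 widest members, 12 genes with most members, leading genes of each list, 3 richest segments, 3 longest runs and 5 members with most POU5F1 or SOX2 midpoints. Genes named by their GC content and density, and the words TAATTA, ATTTAAAT and ATGCAT, were chosen after their values were seen. Overlap, interval and counting steps were tested on simulated data. Alternatives comprised other width thresholds, score minimums, overlaps, windows, distances and gene sets. Some named genes and sequences that the rules select are not reported here. Python 3.11.15 was used with numpy 2.4.6, scipy 1.17.1, pandas 2.3.3, pysam 0.24.0 and matplotlib 3.10.9.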

Additional observations from a re-analysis of the deposited data

How the results depend on the processing

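Of 29 alternatives to 9 results, 27 moved the value beyond its counting interval (beyond 1.5 times for the number of broad peaks) and 2 did not. The number of broad peaks was 29038 over 1500 bp and 4471 over 3000 bp, against 14911. With POU3F1 peaks merged across gaps of up to 150 bp, 17197 were over 2000 bp. Members over 3000 bp were in gene bodies in 45.9% and introns in 42.6%, held POU5F1 in 67.5% and SOX2 in 21.8%, had a GC content of 33.2% and an octamer ratio of 1.70, were overlapped in the activin-free list in 99.96%, and had another such peak within 10 kb in 26.9%. With protein-coding genes only, gene bodies held 39.7% and introns 37.2%, and any shared base gave 42.6% for gene bodies. The central 500 bp had a GC content of 32.95%. The octamer ratio was 1.71 with flanks of 1 to 3 kb, 1.64 with up to 1 mismatch and 1.73 without members and flanks of over 5 octamers, a setting added after the data were seen. POU5F1 was in 54.9% by 1 shared base, 40.5% with a score of at least 100 and 48.4% in the central 2000 bp. For SOX2 these values were 18.6%, 8.27% and 12.1%. In the activin-free list, 94.2% were overlapped by at least 50% of both peaks and 99.3% by peaks with a score of at least 100. Another broad peak lay within 5 kb of 34.99% and within 20 kb of 66.3%. The values that changed most were those tied to the width threshold and to the score of SOX2 peaks, and neither the low GC content nor the octamer ratio above 1 changed direction in any alternative. Without replicates, leaving out a library was not possible, and the depth behind the lists is unknown. No paired analysis was possible because the POU3F1 values come from 1 library in each culture and no test.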

Other observations

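The 26 broad peaks without overlap in the activin-free list were 2030 to 3802 bp wide and had EpiSC scores of 66.8 to 613, all below the median of 966 for broad peaks. They were chosen by this absence, so the values are a description. The number of broad peaks per Mb ran from 2.52 on chromosome 7 to 8.25 on chromosome 15, and it was 5.23 on chromosome X. Chromosome X had the lowest mean GC content of broad peaks, 32.3%, and chromosome 19 the highest, 34.0%.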
